A study of Mus musculus with 50 samples.

Results

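The cytosolic ribosomal protein genes, which encode the protein subunits of the ribosomes that translate nuclear mRNAs, were described in mouse embryonic stem (ES) cells and in epiblast-like cells (epiLC). Members were chosen by symbol alone: Rpl or Rps followed by a number, with an optional a, x or l, and Rpsa, Rplp0, Rplp1 and Rplp2, with pseudogenes left out. The rule found 83 members among the 55421 genes of each of 3 tables in TPM, a measure of transcript abundance per length and library, 32 of the small and 51 of the large subunit. In the other table, in fragment counts scaled to transcript length and library total (FPKM), 81 of the 83 symbols were among 17043 genes, since Rpl32l was not listed and the gene of Rpl6l stood under another symbol. RefSeq annotated 81 of the 83 as protein coding, Rpl6l as a pseudogene and Rps4l as a transcribed pseudogene. The rule left out some other genes of the ribosome, such as Rps3a1, Fau and Rack1.

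RNA-seq was measured in 32 of the 50 samples of a series on β-catenin and its partner proteins in ES cells. The FPKM table held 12 libraries of the V6.5 ES line in 2i medium: 6 with a control hairpin to GFP (shGFP) and 2 each with a hairpin to β-catenin (shBcat), to the repressor E2F6 (shE2F6) and to HP1γ (shHP1r in the labels). ES cells labelled QKO, a name the labels do not spell out, carried shBcat or shGFP in 2i medium (n = 3 each), and their labels add 48 h without saying from when. The third table held V6.5 cells in 2i, the medium of MEK and GSK3 inhibitors that keeps ES cells naive, and epiLC at 24 and 48 h (n = 2 each). The last table held shBcat epiLC of 24, 48 and 96 h beside 96 h epiLC as control (n = 2 each); no hairpin is named for any control epiLC. All groups but QKO came from the single V6.5 line, and whether replicates were separate cultures is not stated. The spread behind each p-value is therefore that between libraries, which may be technical.

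A ribosome needs its proteins in matched numbers, and ribosomal protein mRNAs are among the most abundant of any growing cell. Their transcripts typically begin with a run of pyrimidines, the 5′ terminal oligopyrimidine or TOP motif, through which mTOR signalling sets their translation. Some proteins have paralogues used mainly elsewhere: Rpl3l in striated muscle, Rpl10l and Rpl39l in the male germline, while Rps27l is a p53-inducible relative of Rps27. Mammalian genomes also carry many processed pseudogenes of these genes, near-identical copies to which short reads can be assigned.

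The 30 bases around the annotated transcript start (15 on each side, RefSeq, build GRCm38.p6, 5′ to 3′ on the gene's strand) are printed for the stalk proteins Rplp0 and Rplp2, the smallest protein Rpl41, and the paralogue pairs that the results turn on. Capitals mark the longest run of C and T in the window. Rps27l and Rpl3l have a second listed start, and Rplp1, Rpl3 and Rps4l had no entry.
Rplp0 (chr5:115559452-115559481, plus strand): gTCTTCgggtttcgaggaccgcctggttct
Rplp2 (chr7:141447636-141447665, plus strand): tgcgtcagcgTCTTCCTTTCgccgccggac
Rpl41 (chr10:128549154-128549183, minus strand): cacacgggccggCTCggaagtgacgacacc
Rps27 (chr3:90213634-90213663, minus strand): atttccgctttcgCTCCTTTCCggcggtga
Rps27l (chr9:66946071-66946100, plus strand): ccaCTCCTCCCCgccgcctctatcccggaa
Rpl39 (chrX:37085208-37085237, minus strand): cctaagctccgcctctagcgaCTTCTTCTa
Rpl39l (chr16:10170213-10170242, plus strand): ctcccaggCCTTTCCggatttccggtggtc
Rpl10 (chrX:74270801-74270830, plus strand): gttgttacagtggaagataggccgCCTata
Rpl10l (chr12:66284387-66284416, minus strand): tttggCCTCCattttgcggctggcggtggg
Rps4x (chrX:102189377-102189406, minus strand): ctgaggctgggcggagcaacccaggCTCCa
Rpl3l (chr17:24727811-24727840, plus strand): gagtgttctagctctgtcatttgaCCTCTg
The run was 10 bases long in Rplp2, 9 in Rps27 and Rps27l, 8 in Rpl39 and 7 in Rpl39l. It was 5 bases in Rplp0, Rpl10l and Rpl3l, 4 in Rps4x and 3 in Rpl10 and Rpl41. Over the 73 listed starts of 61 members, a run of at least 8 pyrimidines was present in 38.4%, against 12.0% of the 32851 starts of all genes, the members included. The letters CTTTC stood on the gene's strand in 23.3% of member windows and 4.05% of all windows, and on the other strand (GAAAG) in 2.74% and 3.60%. The letters CCGGAAG, on either strand of the listed promoter from 250 bases before to 50 after the start, were in 35.6% of member promoters and 8.86% of all promoters. A window without these letters shows only that they are not there, and the annotated start need not be the one used in these cells.

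The summed share of the members, their part of all deposited values of a library, differed between the tables. It was 17.7% to 22.2% in the 2 tables of 2i and epiLC libraries, with or without shBcat. It was lowest in the V6.5 hairpin libraries of the FPKM table. In 2i it was 22.2% in both libraries. It was 18.7% and 18.9% in epiLC at 24 h, and 20.5% and 20.8% at 48 h. With shBcat, epiLC held 18.0% and 17.7% at 24 h, 19.0% in both libraries at 48 h, and 19.7% and 19.0% at 96 h, beside 19.5% and 19.6% in control epiLC at 96 h. The QKO libraries lay in a narrow band, from 10.6% to 10.8% with shBcat and from 10.5% to 11.1% with shGFP. The 6 V6.5 shGFP libraries held 7.67%, 7.90%, 5.50%, 5.63%, 8.97% and 9.10% in the order of their numbers. They thus stood as 3 close pairs, and replicates 3 and 4 were lowest. The differences between 2i, 24 h and 48 h had no overlap, but 2 libraries against 2 cannot give an exact p below 0.333. The tables were normalized separately, in different units, and were not tested against each other.

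**Figure D1:**
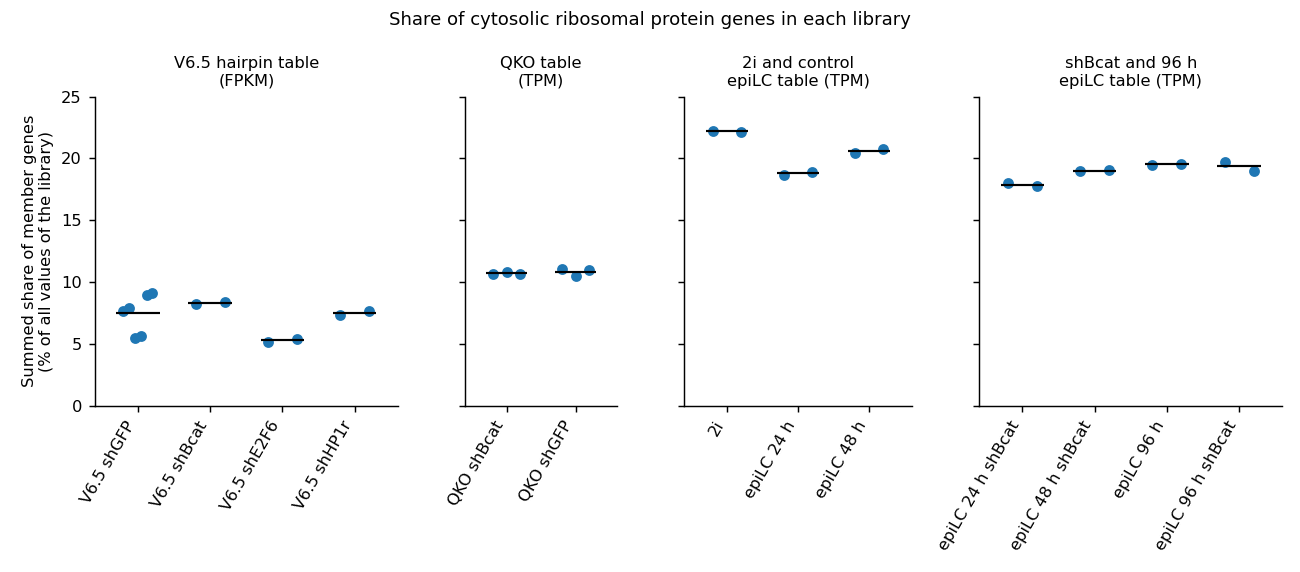
Summed share of the member genes (vertical axis, percent of all FPKM or TPM values of a library) in each of the 32 libraries, in 1 panel per table; points are libraries and bars are group means. The 6 V6.5 shGFP libraries spread from 5.50% to 9.10%, and the 2i libraries, at 22.2%, stand above both epiLC times of their table.

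The members' own levels were also unevenly spread in the tables with low shares. On a per-length scale, the highest member of every 2i and epiLC group was Rps12, a small subunit protein, at 6764 and 6565 TPM in the 2i libraries. The stalk protein Rplp1 followed, at 5847 and 5476 TPM. In QKO shGFP the highest was Rps24 (3612, 3399 and 3688 TPM), while in V6.5 shGFP it differed between libraries. There it was Rpl4 in replicates 1 and 2 (1390 and 1400 FPKM), Rps26 in 3 and 4 (1630 and 1680 FPKM), and Rplp1 in 5 and 6 (1740 and 1860 FPKM). The interquartile range of the 83 members' group means spanned 1.76-fold in 2i, 3.01-fold in QKO shGFP and 3.29-fold over the 81 members in V6.5 shGFP. The rank correlation of member levels between 2i and control epiLC at 96 h was 0.87 (Spearman, 83 members, a description across genes that share libraries). Between 2i and QKO shGFP it was 0.78, and between 2i and V6.5 shGFP it was 0.42 over 81 members.

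Levels listed under named pseudogenes (symbols ending in -ps and a number) also differed between the tables. The pseudogenes held 2.43% to 4.14% of all values in the V6.5 hairpin libraries, 31.0% to 32.1% of the sum of members and pseudogenes. They held 21.1% to 22.6% of that sum in QKO, 3.52% to 3.65% in the table of 2i and control epiLC, and 2.41% to 2.58% in the shBcat epiLC table. In QKO shGFP, 16 of the 62 members with a named pseudogene had more value under the pseudogenes than under their own symbol, and in V6.5 shGFP 20 of 54 did. In 2i and in control epiLC at 96 h the count was 0 of 62. Rps13, a small subunit protein, was the extreme case: in QKO shGFP it stood at 31.3 TPM with 1630 TPM under its pseudogenes, and in 2i at 1646 TPM with 228 TPM under them. Rpl34 stood at 76.3 TPM beside 1323 TPM of pseudogenes in QKO shGFP, and at 1187 beside 842 TPM in 2i. Rpl10 stood at 184 beside 1794 TPM in QKO shGFP. The FPKM and TPM tables came from different counting tools, but the QKO and epiLC tables came from the same ones. In the files, reads from a member and from its copies cannot be told apart. The cause of the differences between tables was not tested.

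**Figure D2:**
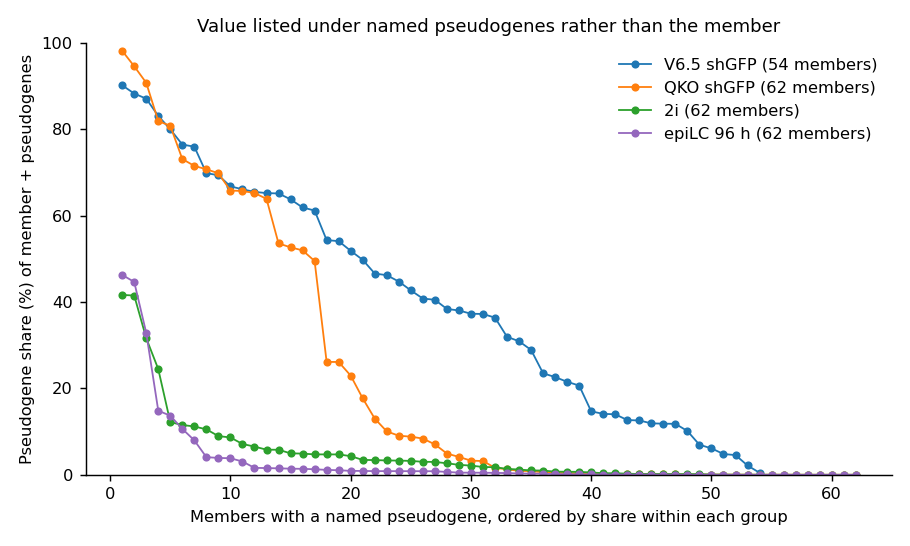
Share of value listed under named pseudogenes (vertical axis, percent of member plus pseudogenes) for members with at least 1 named pseudogene, ordered within each of 4 groups along the horizontal axis; each point is 1 member's group mean. In V6.5 shGFP 20 of 54 and in QKO shGFP 16 of 62 members lie above 50%, and none of 62 does in 2i or epiLC at 96 h.

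Outlying low levels, more than 1.5 interquartile ranges below the lower quartile of a group's members on the log2 scale, fell on the paralogues in every table. Rpl3l and Rpl39l were outlying in all 13 groups, at 0.618 ± 0.288 and 6.96 ± 2.23 FPKM in V6.5 shGFP (SD, n = 6). Rpl10l averaged 20.0 ± 8.31 FPKM there. In 2i, Rpl3l, Rpl39l and Rpl10l averaged 2.36, 21.3 and 44.5 TPM, while Rps27l averaged 485 and Rps4l 520.0 TPM, beside a member median of 2807 TPM. Rpl6l and Rpl32l were at 9.26 and 8.39 TPM. The QKO groups had 9 outlying low members, among them Rpl5, Rpl12, Rpl34 and Rps13, which are core proteins of the ribosome. Rpl5, whose protein carries the 5S rRNA and binds Mdm2, stood at 79.9, 83.3 and 82.0 TPM in QKO shGFP and at 2500 and 2336 TPM in 2i. The named pseudogenes of Rpl5 held 7.91 TPM in QKO shGFP, and those of Rpl12 held 0.470 TPM. With these named pseudogenes added, Rps13 and Rpl34 were no longer outlying in QKO shGFP, Rpl5 and Rpl12 still were, and Rps7 became so. Copies listed under symbols without -ps were not counted, so the part of copies in these low levels was not tested. Rpl24 was outlying in the V6.5 hairpin table, at 5.48 to 42.6 FPKM in shGFP.

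In ES cells that entered epiLC culture, most members fell by 24 h. At 24 h against 2i, 64 of the 83 members fell and 13 rose (limma on log2(value + 1), Benjamini-Hochberg adjustment over all genes, threshold 0.05). Of all 16559 genes tested, 39.8% were called lower and 36.2% higher, so calls in this table were the rule. The members' median log2 change was -0.26, beside -0.04 over all genes. Both subunits moved alike, with 26 of 32 small and 38 of 51 large subunit members lower and medians of -0.25 and -0.27. The pluripotency markers summed to 8117 to 8122 TPM in 2i and 4665 to 4805 TPM at 24 h, and the epiblast-like markers to 27.2 to 29.3 and 445 TPM. In bulk RNA, fewer cells of a kind and less RNA per cell cannot be told apart.

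The largest fall was that of Rps20, a small subunit protein, at 3373 and 3226 TPM in 2i and 2093 and 2078 TPM at 24 h. The libraries of the groups did not overlap, and the log2 change was -0.66 ± 0.03 (SE, adjusted p = 1.26e-06 by limma). Rpl17 fell by 0.60, Rpl26 by 0.57, Rps14 by 0.51 and Rpl39 by 0.51 on the log2 scale (limma adjusted p between 6.50e-07 and 8.62e-06). Rpsa, the 40S protein also known as a laminin receptor, fell from 4616 and 4529 to 3468 and 3489 TPM. Rpl5 fell by 0.47 and its 5S partner Rpl11 by 0.09 on the same scale. Rps19, the gene most often mutated in human Diamond-Blackfan anaemia, fell by 0.34, and Rpl38, known for translation of Hox mRNAs in the mouse embryo, by 0.35.

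Members that rose stood apart from this shift. Rps4l rose from 504 and 536 to 824.5 and 823 TPM, while its X-linked relative Rps4x fell from 3253 and 3175 to 2442 and 2460 TPM. Rpl39l and Rps4l were among the members whose change lay more than 3 scaled median absolute deviations above the members' median. Rps27l rose by 0.30 and Rpl7a by 0.26. Of the stalk proteins, which recruit elongation factors to the ribosome, Rplp2 rose by 0.23 and Rplp0 by 0.08, while Rplp1 fell by 0.26.

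Between 24 and 48 h of epiLC culture, 55 of 83 members rose and 11 fell, where 45.2% of all genes were called higher and 28.9% lower. The members' median change of 0.12 was the same as that of all genes tested, 0.12. Median-of-ratios scaling moved both medians alike, to -0.05 for the members and -0.03 for all genes, and gave 19 members higher and 35 lower. Under both scalings the members' median thus lay near that of all genes. The largest rises kept their sign and their call under every alternative tried. Rps20 rose to 2792 and 2857 TPM at 48 h (log2 change 0.44 ± 0.03), Rpl17 by 0.39, Rpl26 by 0.37, Rpl23a by 0.33 and Rpl3 by 0.33. Both comparisons use the same 24 h libraries, so Rps20, Rpl17 and Rpl26 cannot count as moving back independently of their first change.

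At 48 h against 2i, 57 members were lower by the test and 15 were higher, where 30.8% and 45.1% of all genes were called in those directions. The members' median change was -0.13, beside 0.11 over all genes. Marker sums moved too, from 8117 and 8122 in 2i to between 1826 and 1841 TPM at 48 h for pluripotency. Epiblast-like markers summed to 27.2 and 29.3 TPM in 2i, 445 TPM at 24 h, and 224 and 232 TPM at 48 h. Primitive endoderm markers went from 9.87 and 10.99 to 51.4 and 57.6 TPM, with Gata6 and Sox17 below 1 TPM at 48 h. Trophoblast markers went from 63.1 and 67.4 to 192 and 200.0 TPM, with Elf5 below 1 TPM. The part of these lists was not tested. With median-of-ratios scaling 65 were lower and 5 higher. The direct comparison gave Rps15a the largest fall outside the paralogues and Rpl6l, from 3782 ± 78.7 to 2924 ± 61.6 TPM (SD, n = 2), a change of -0.37. Rpl41, the smallest protein, rose by 0.23, and Rpl28 and Rps2 rose by 0.30 and 0.20.

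**Figure D3:**
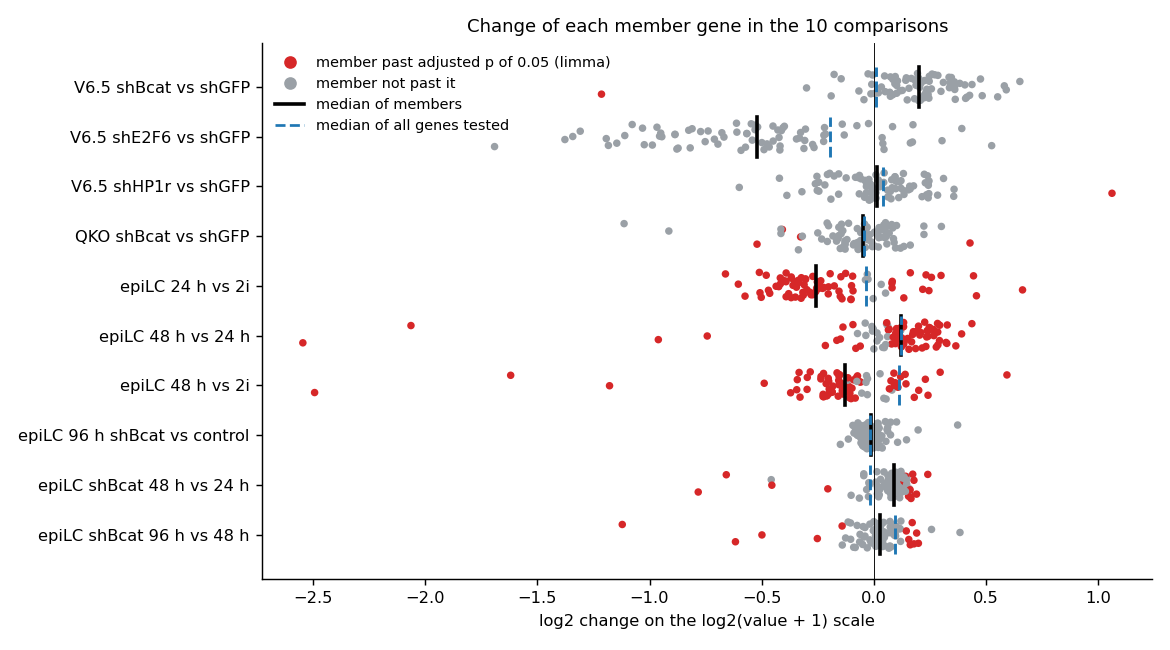
Log2 change of every tested member (horizontal axis) in the 10 comparisons (rows); red points passed the limma threshold, black bars are the members' medians and dashed bars the medians of all genes tested. At 24 h against 2i the members' median is -0.26 beside -0.04 for all genes, and at 48 h against 24 h both medians are 0.12.

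Between 24 and 48 h, Rpl10l, Rpl39l, Rps4l and Rpl3l followed another course than their counterparts. Rpl10l stood at 44.9 and 44.1 TPM in 2i, 45.6 and 46.8 TPM at 24 h, and 7.44 and 6.74 TPM at 48 h. The 48 h libraries lay far below all others, a change of -2.55 ± 0.05 from 24 h (adjusted p = 1.98e-07 by limma), the largest of any member in any comparison. Its counterpart Rpl10 stood at 2843 and 2875 TPM at 24 h and 3151 and 3224 TPM at 48 h, a rise of 0.16. Rpl39l stood at 21.4 and 21.2 TPM in 2i, 30.0 and 28.7 TPM at 24 h, and 6.42 and 6.10 TPM at 48 h. It rose by 0.44 ± 0.05 and then fell by 2.06 ± 0.05, while Rpl39 rose by 0.32 between 24 and 48 h. Rps4l fell from its 24 h level to 429.9 and 416 TPM at 48 h (-0.96 ± 0.04), and Rps4x rose by 0.06. Median-of-ratios scaling moved the members' median in this step from 0.12 to -0.05. The direction of the small rises of Rpl10 and Rps4x may therefore depend on the scaling. The falls of Rpl10l, Rpl39l and Rps4l in this step held under every alternative tried. Rpl3l went from 2.37 and 2.35 TPM in 2i through 1.54 and 1.43 to 0.460 and 0.510 TPM, and fell by 0.74 ± 0.08 in the later step. There its counterpart Rpl3 rose by 0.33. In the first step both fell, Rpl3l by 0.44 and Rpl3 by 0.38. The Rpl3l values lie around the filter value of 1 TPM.

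The epiLC with shBcat, separate libraries in a separate table, gave the same order of times for these 4 paralogues. Rpl10l stood at 28.0 and 28.2 TPM at 24 h, 15.5 and 16.3 TPM at 48 h, and 10.1 and 9.93 TPM at 96 h. It fell by 0.78 ± 0.06 and by 0.62 ± 0.06 in the 2 steps (limma adjusted p = 1.18e-04 and 4.47e-04). Rpl39l stood at 36.3 and 33.15 TPM, then 20.5 and 22.8, then 9.24 and 9.57 TPM, with falls of 0.66 ± 0.09 and 1.12 ± 0.09. Rps4l fell by 0.21 ± 0.06 and 0.25 ± 0.06, and Rpl3l by 0.45 ± 0.13 and 0.50 ± 0.13 (limma adjusted p = 0.0328, 0.0151, 0.0301 and 0.0212). In control epiLC at 96 h Rpl10l was at 9.43 and 9.04 and Rpl39l at 7.64 and 6.46 TPM. Rpl39l was higher with shBcat at 96 h without overlap but did not pass the threshold (0.37 ± 0.09, limma adjusted p = 0.0687). The calls of Rpl10l and Rpl39l held under every alternative tried in both tables, while those of Rps4l and Rpl3l in the shBcat table were lost under 3 to 6 of them. The control and shBcat libraries at 24 and 48 h lie in different tables, so their rates of change were not compared.

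Rps27l went the other way. It stood at 490.3 and 479 TPM in 2i, 599 and 595 TPM at 24 h, and 730.1 and 734 TPM at 48 h, so that each time lay above the one before. The change from 2i to 48 h was 0.59 ± 0.02 (adjusted p = 8.90e-07 by limma), the highest of any member there, while that of Rps27 was -0.08 (limma adjusted p = 0.0515, not called). In shBcat epiLC it rose from 444 and 446 to 528 and 524 TPM between 24 and 48 h (0.24 ± 0.05), a call lost under 4 of 11 alternatives. At 96 h it stood at 541 and 499 TPM with shBcat, on both sides of the 48 h values. Among relatives outside the rule, Rpl22l1 fell by 0.66 at 24 h, where Rpl22 itself fell by 0.39, and Rpl36al and Rpl7l1 rose by 0.32 and 0.40.

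**Figure D4:**
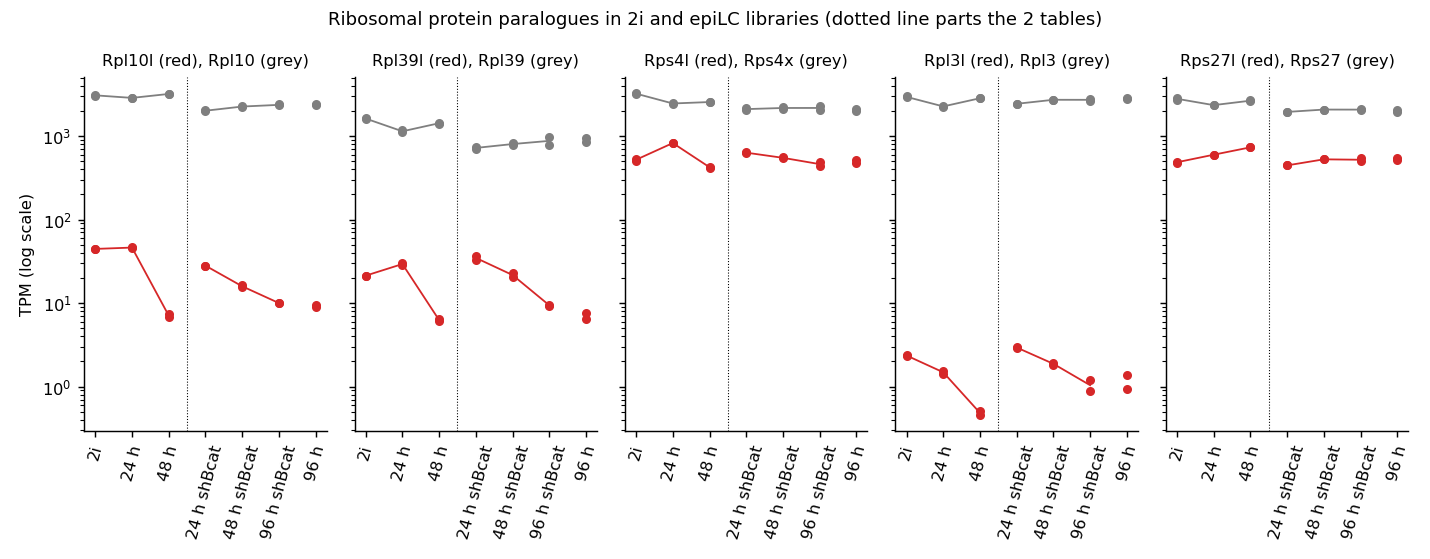
TPM of 5 paralogues (red) and their counterparts (grey) in each library of the 2 tables, on a log axis, with lines through the group means of successive times. Rpl10l goes from 45.6 and 46.8 TPM at 24 h to 7.44 and 6.74 TPM at 48 h, while Rpl10 goes from 2843 and 2875 to 3151 and 3224 TPM.

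At 24 h, genes that build ribosomes were mostly called higher and the proteins that make them up mostly lower; the difference between the lists was not tested. Of 42 ribosome biogenesis genes, 40 rose and 1 fell at 24 h against 2i, with a median change of 1.01, while the members' median was -0.26. Polr1b, a subunit of RNA polymerase I, rose from 30.1 ± 0.948 to 79.8 ± 0.502 TPM (SD, n = 2), and the rRNA methyltransferase Nop2 from 86.5 ± 1.26 to 218 ± 3.85 TPM. Between 24 and 48 h, 41 of 42 fell and 0 rose by the test, with a median of -0.59, where the members' direction depended on the scaling. Mitochondrial ribosomal protein genes went with biogenesis: 61 of 78 rose and 7 fell at 24 h (median 0.38), and 61 fell and 6 rose by 48 h (median -0.29). Translation factors and other TOP mRNAs were split at 24 h, with 11 of 22 higher and 9 lower. Of all genes, 36.2% were called higher and 39.8% lower at 24 h, and 45.2% and 28.9% between 24 and 48 h. The lower count of the TOP list was thus near the share of all genes. Eef1a1, the main elongation factor, fell by 0.37 while Npm1, a nucleolar chaperone counted in both lists, rose by 0.52. Polr1b, Nop2, Eef1a1 and Npm1 were picked as examples after their values were seen. In shBcat epiLC the same biogenesis list had 10 lower and 1 higher between 24 and 48 h (median -0.06), and 28 lower and 0 higher between 48 and 96 h (median -0.24). There, the members had 12 higher and 4 lower, then 7 higher and 5 lower, with medians of 0.09 and 0.03. The shares of all genes called in these 2 comparisons were 15.7% higher and 17.8% lower, then 25.2% and 9.83%. The first of these counts was unstable: 53 members were called when the compared groups were fitted alone, and 2 or 3 when any single library was left out. The second gave 2 or 3 calls without either 48 h library, and 0 higher and 9 lower with median-of-ratios scaling.

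With knockdown of β-catenin, few members or none passed the test in any of the 3 cell settings. Ctnnb1, which encodes β-catenin, was at 6.58 and 6.61 FPKM in V6.5 shBcat and at 88.8 to 134 FPKM in shGFP, at 48.4 to 82.4 against 490.2 to 528 TPM in QKO, and at 142 and 145 against 441 and 448 TPM in epiLC at 96 h. The summed share with shBcat was 8.24% and 8.35% in V6.5, inside the range of shGFP (exact two-sided permutation test, p = 0.714, smallest possible p = 0.0714). In QKO the difference in mean share was -0.14 percentage points (exact permutation p = 0.600, smallest possible 0.1). In epiLC at 96 h it was also -0.14 points (exact permutation p = 1, smallest possible 0.333). The limma counts were 0 of 80 members higher and 1 lower in V6.5, 1 of 82 higher and 3 lower in QKO, and 0 of 83 in either direction at 96 h. The shares of all genes called higher and lower were 3.51% and 5.21%, 0.585% and 1.56%, and 2.29% and 2.54%. At an unadjusted p under 0.05, 1 member was higher and 1 lower at 96 h, beside 8.87% and 11.1% of all genes.

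The member called in V6.5 cells was Rpl10l, at 7.08 and 8 FPKM with shBcat. In shGFP it stood at 12.9, 14.8, 15.4, 15.7, 29.3 and 31.9 FPKM, above both shBcat libraries. The change was -1.21 ± 0.31 (adjusted p = 0.0367 by limma). Marker sums also lay apart without overlap, at 23.6 to 25.4 against 7.75 to 13.8 FPKM for epiblast-like markers. They were 48.5 to 51.2 against 24.8 to 41.7 for trophoblast and 6.63 to 6.65 against 1.82 to 6.08 for primitive endoderm markers. In both groups 2 of 4 epiblast-like markers reached 1 FPKM (not Fgf5 or Pou3f1), and 3 of 5 trophoblast markers did (not Elf5 or Cdx2). Of the 4 primitive endoderm markers present, 2 did (not Gata6 or Dab2). The sums thus rest on a few genes of each list, and their part was not tested. The change in Rpl10l lost its call when either shBcat library was left out (adjusted p = 0.323 and 0.241) or when libraries were averaged in pairs (adjusted p = 1.00). In QKO, Rpl10l stood at 101, 92.5 and 80.0 TPM with shBcat and at 99.7, 94.6 and 104 TPM with shGFP, and the libraries overlapped. Against shGFP replicates 3 and 4 alone, 66 members were higher and 6 lower with shBcat, with a median of 0.71 beside 0.17 for all genes. Without those libraries 0 were higher and 1 lower. The shares of all genes called under these settings are not given.

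In QKO cells Rps7, Rpl27 and Rpl12 were lower and Rpl39l was higher with shBcat. Rps7 stood at 129.9, 129.8 and 108 TPM with shBcat and 175, 182 and 169.5 TPM with shGFP, a change of -0.52 ± 0.08 (adjusted p = 0.0408 by limma). Rpl39l stood at 46.7, 45.7 and 50.4 against 34.1, 32.2 and 39.4 TPM, a change of 0.43 ± 0.08 (adjusted p = 0.0470). Rpl12, outlying low in both QKO groups, changed by -0.33 ± 0.06. Rps7 averaged 176 TPM with shGFP, beside 2478 TPM in 2i, so both calls rest on low levels. Rpl27 stood at 124, 124 and 112 against 171, 151 and 156 TPM, a change of -0.41 ± 0.06, but at -0.05 (adjusted p = 0.478) once its pseudogenes were added. Each of these calls was lost when at least 1 library was left out, and without shBcat replicate 2, shBcat replicate 3 or shGFP replicate 1 no member was called. Fibroblast or feeder markers moved with the groups here: of the 7 listed, 6 reached 1 TPM with shBcat (not Lum) and 7 with shGFP, and their sums were 55.6 to 83.6 and 235 to 553 TPM. Primitive endoderm markers, with 4 of 5 at 1 TPM or more in both groups, summed to 27.6 to 41.3 and 51.2 to 95.8 TPM. The part of either list in these changes was not tested.

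With shE2F6 the members were low, and so were they in 2 control libraries. The summed share was 5.18% and 5.37% with shE2F6, below all 6 shGFP libraries (exact two-sided permutation p = 0.0714, the smallest possible). That test takes each library as a separate unit, although the shGFP shares stood in close pairs. The median log2 change was -0.52 beside -0.20 for all genes, and 0 of 80 members passed the limma threshold, where 0.41% of all genes were called higher and 0.652% lower. At an unadjusted p under 0.05, 35 members were lower and 0 higher, beside 27.7% and 6.05% of all genes. E2f6 itself averaged 3.06 ± 0.686 FPKM with shE2F6 (n = 2) and 10.0 ± 0.819 with shGFP (n = 6).

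Replicates 3 and 4 of shGFP lay beside the shE2F6 libraries in single members as well. Rps14 stood at 61.1 and 63.6 FPKM with shE2F6, at 66.8 and 77.2 in shGFP replicates 3 and 4, and at 274 to 420 FPKM in the other 4 shGFP libraries. The stalk protein Rplp1 stood at 487 and 496, then 628 and 660, then 1170 to 1860 FPKM. Rps26 ran opposite, at 1590 and 1630 with shE2F6, 1630 and 1680 in shGFP replicates 3 and 4, and 816 to 1040 FPKM in the other 4. Rps12 stood at 1220 and 1240 with shE2F6 and 1220 to 1410 FPKM over all shGFP libraries. The same 4 libraries held 19.3% to 22.9% of their values in mitochondrially encoded transcripts, and the other 8 held 6.23% to 10.3%. With those transcripts left out of the total, the shares were 6.72% and 6.92% with shE2F6, 6.91% and 6.98% in shGFP replicates 3 and 4, and 8.42% to 9.74% in the other shGFP libraries.

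The count for shE2F6 changed with those 2 controls. Against the other 4 shGFP libraries, 63 members were lower and 6 higher, with a median of -0.76 beside -0.28 for all genes. Without shGFP replicate 3 alone 40 were lower (median -0.61), and without replicate 4 alone 31 (median -0.62), beside -0.23 for all genes in both. Against replicates 3 and 4 by themselves 0 were higher and 1 lower, with a median of -0.06 beside -0.04 for all genes. A term for the high mitochondrial libraries gave 0 calls and a median of -0.06 beside -0.04. The shares of all genes called under these settings are not given, so these counts alone do not set the members apart. The labels give no batch for these libraries, so a batch and the knockdown cannot be told apart.

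**Figure D5:**
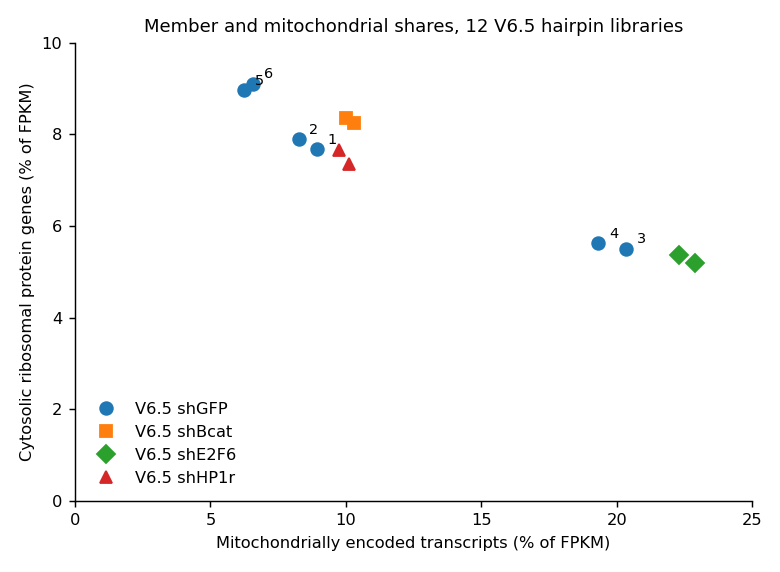
Summed share of the member genes (vertical axis, percent of FPKM) against the share of mitochondrially encoded transcripts (horizontal axis, percent of FPKM) in the 12 V6.5 hairpin libraries; markers show the hairpin and the digits number the shGFP replicates. The shE2F6 libraries and shGFP replicates 3 and 4 lie together, at 5.18% to 5.63% for the members and 19.3% to 22.9% for mitochondrial transcripts.

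With shHP1r the summed share lay within the controls, at 7.34% and 7.66% (exact permutation p = 1, smallest possible 0.0714), with 1 of 80 members higher and 0 lower, where 5.89% and 1.70% of all genes were called. The median change was 0.01. Cbx3, which encodes HP1γ, averaged 6.93 ± 0.460 FPKM with shHP1r and 63.5 ± 5.88 with shGFP. The member called was Rpl39l, at 12.0 and 18.9 FPKM with shHP1r, above all shGFP libraries (5.06, 4.32, 6.13, 7.17, 9.72 and 9.38 FPKM). The change was 1.06 ± 0.26 (adjusted p = 0.0357 by limma). It fell short of the threshold without shHP1r replicate 1 or 2 (adjusted p = 0.101 and 0.223), without shGFP replicate 1, 3 or 4, and with median-of-ratios scaling (adjusted p = 0.0592). Rps2, a small subunit protein, was outlying low at 260 and 364 FPKM, below all shGFP libraries (391 to 539 FPKM), but missed the threshold (-0.60 ± 0.16, limma adjusted p = 0.0513). Against shGFP replicates 3 and 4 alone 62 members were higher and 10 lower, with a median of 0.54 beside 0.23 for all genes. Without them 1 was higher and 2 lower. A term for the high mitochondrial libraries gave 1 higher and 11 lower, with a median of -0.22 beside -0.05 for all genes. The shares of all genes called under these settings are not given. Rpl39 stood at 80.8 and 75.8 FPKM with shHP1r, inside the 33.6 to 114 FPKM of shGFP.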

How the data were processed

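RNA was extracted with TRIzol, treated with DNase and sequenced from TruSeq libraries, per the labels' protocols. The authors deposited FPKM values for the V6.5 hairpin libraries and TPM values in 3 tables for the rest. Per the submitters' processing notes, FPKM came from bcl2fastq 2.18, TopHat2 2.0.13, Bowtie2 and Cufflinks 2.2.1, and TPM from bcl2fastq 2.18, STAR, Bowtie2 and RSEM, on mm10. Versions of STAR, Bowtie2 and RSEM are not given in the sources used here. Depth is unknown, so no counting interval is given, and 1 per-sample column with no matching sample was not used. The 18 ChIP samples were not analysed here.

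Each table was analysed apart. Genes at 1 or more in at least 2 libraries were fitted on log2(value + 1) with limma 3.58.1 (R 4.3.3, statmod 1.5.0, trend and robust), over all groups of a table, with Benjamini-Hochberg adjustment over all genes tested and a threshold of 0.05. Fold changes on this scale understate those of low genes. Shares were compared by two-sided exact permutation tests, which take each library as a separate unit. Single members are uncertain where near-identical copies share reads. Scripts were tested on simulated data. The members and lists were chosen with earlier results of these data known. Named members were a fixed set (stalk proteins, proteins with known special roles, paralogue pairs), up to 5 called rises and falls per comparison, and those with outlying levels (1.5 interquartile ranges) or changes (3 scaled median absolute deviations). Same-numbered QKO libraries correlated at -0.01, -0.04 and 0.13 in their deviations and no label ties numbers to a batch, so the numbers were not treated as pairs. Alternatives were another pseudocount, other filters, median-of-ratios scaling, a replicate block, fits of only the compared groups, omission of each library, libraries averaged in pairs, a term for the high mitochondrial libraries and other definitions of the share. The settings with shGFP replicates 3 and 4 set apart and with pseudogenes added were chosen after seeing the data. Some results of the naming rule are not reported here.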

Additional observations from a re-analysis of the deposited data

Results flagged for a closer look

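For 3 of the named members the values moved in opposite directions, without overlap between libraries, under β-catenin knockdown in different cell settings. The settings lie in separately normalized tables, so the difference between them was not tested. Such opposite pairs were found for 2 of 80 members and 5.54% of 12511 genes between V6.5 and QKO, for 2 of 80 and 8.24% of 12288 between V6.5 and epiLC at 96 h, and for 3 of 82 and 8.24% of 13842 between QKO and epiLC, members not named by the rule included. Rpl10l changed by -1.21 in V6.5 cells (called) and stood at 0.11 in epiLC at 96 h (log2, limma adjusted p = 0.403). Rpl11 stood at 0.301 in QKO cells and -0.0935 in epiLC at 96 h, neither past the threshold. Rpl12 stood at 0.34 in V6.5 cells (limma adjusted p = 0.357) and changed by -0.33 in QKO cells (limma adjusted p = 0.0460). Of 23 sets of 6 shGFP values tested for a library far from the others, 0 had one. The shares of these libraries stood in close pairs, and a search for a single far library need not find a pair that lies apart.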

How the results depend on the processing

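Members called, against the values in the report: with V6.5 shBcat (1), 0 with the groups alone or averaged pairs and 72 against shGFP replicates 3 and 4. With shE2F6 (0), 69 without replicates 3 and 4 and 1 against them alone. With shHP1r (1), 2 with no filter, 0 with median-of-ratios scaling, the groups alone or averaged pairs, 12 with the mitochondrial term (11 lower), 3 without and 72 against replicates 3 and 4. In QKO (4), 0 with no filter and 7 at a minimum of 5. In shBcat epiLC, 53 with the groups alone at 48 against 24 h (16), and 7 with no filter at 96 against 48 h (12). Leaving out each library gave 0 to 1, 0 to 40, 0 to 2 and 0 to 5 calls in the V6.5 shBcat, shE2F6, shHP1r and QKO comparisons, 2 to 3 at 48 and 2 to 13 at 96 h in shBcat epiLC. The 2i and control epiLC counts (71 to 75, 51 to 60 and 63 to 71) and the 0 at 96 h moved by less than 1.5 times under all alternatives run when both directions are summed. By direction, median-of-ratios scaling gave 19 higher and 35 lower at 48 against 24 h (55 and 11), and 5 and 65 at 48 h against 2i (15 and 57). Shares of all genes called are given for the main fits only, so the counts under these alternatives have no such share beside them.

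A replicate block gave 6, 69 and 2 calls for V6.5 shBcat, shE2F6 and shHP1r, and 3 in QKO, where Rpl12 lost its call (limma adjusted p = 0.0546). The numbers are not known to pair the libraries.

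The difference in summed share, in percentage points, was 2.73, -0.287 and 1.94 for shBcat, shE2F6 and shHP1r against replicates 3 and 4 alone. At 24 h against 2i (-3.39) it was -3.63 without mitochondrial transcripts, -3.56 with 4 more ribosomal genes, -2.92 without the highest 5 members and -3.53 with pseudogenes. Without the highest 5 it was 1.55 at 48 against 24 h, -1.37 at 48 h against 2i and 0.940 in shBcat epiLC at 48 against 24 h, and at 48 h against 2i it was -1.73 and -1.72 under the first 2 of these settings. The cause of these shifts was not tested.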
